A study of Mus musculus with 8 samples.

Results

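The U5 and tri-snRNP protein genes are 10 genes chosen by name (Prpf3, Prpf4, Prpf6, Prpf8, Prpf31, Eftud2, Snrnp200, Snrnp40, Sart1 and Usp39). All 10 were found, among 21553 genes with a value, and all 10 passed the filter on low counts. The data were 8 libraries of polyadenylated RNA from whole mouse embryos of B6CBA F1 crosses. Of these, 4 are of 2-cell embryos, collected 24 h after injection, and 4 of 1-cell embryos, collected 5 h after it. All embryos were injected as zygotes, with mRNA for Snrpb plus Snrpd2, for Snrpb alone, for Snrpd2 alone or, as the control, for the fluorescent protein mCherry, and each injection has 1 library per stage. The proteins of Snrpb and Snrpd2 are Sm proteins, part of the ring that sits on spliceosomal small nuclear RNAs. The series asks what supplying them does to splicing and DNA damage signalling in the early embryo. Each library was 1 pool of 40 embryos from 3 experiments, so no condition had a replicate.

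The spliceosome is built from small nuclear ribonucleoproteins (snRNPs), each a small nuclear RNA with its proteins. Most of its catalytic parts arrive as the U4/U6.U5 tri-snRNP, in which U5 and the base-paired U4/U6 are joined. The U5 proteins hold the exons and drive the rearrangements that release U4 and open the catalytic centre, while the U4/U6 proteins keep the particle in its inactive form until it has joined the pre-mRNA. In mouse embryos the mRNAs of the egg are cleared while transcription from the new genome starts, with the major wave at the 2-cell stage. The data give levels of the mRNAs for tri-snRNP proteins, not of the particles.

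The promoters of Prpf6 and Prpf4 are shown because these 2 genes moved farthest in opposite directions between the stages. RefSeq's promoter table (build GRCm38.p6) matched 7 of the 10 genes, without Eftud2, Snrnp40 and Usp39. Each sequence is the 150 bases before the annotated start, on the + strand, at chr2:181601169-181601318 for Prpf6 and chr4:62408633-62408782 for Prpf4. Capitals mark an ETS core (CCGGAA or its reverse complement TTCCGG) or a GC box (GGGCGG or CCGCCC).
Prpf6: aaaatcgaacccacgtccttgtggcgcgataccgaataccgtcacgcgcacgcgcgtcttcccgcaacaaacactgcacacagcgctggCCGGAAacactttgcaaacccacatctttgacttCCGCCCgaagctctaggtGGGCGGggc
Prpf4: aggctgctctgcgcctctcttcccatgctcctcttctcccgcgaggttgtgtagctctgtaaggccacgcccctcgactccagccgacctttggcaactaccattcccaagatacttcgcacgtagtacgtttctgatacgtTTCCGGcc
The Prpf6 stretch held 1 ETS core and 2 GC boxes, and the Prpf4 stretch held 1 ETS core and no GC box. In the whole table window (250 bases before to 50 after the start, both strands), an ETS core was found in 6 of the 7 matched genes, all but Prpf8, and in 14.9% of 32851 mouse promoters. A GC box was found in 3 of the 7 (35.7% of all promoters), a CCAAT box (CCAAT) in 2 of the 7 (37.4%) and a TATA box (TATAAA) in 0 of the 7 (13.6%). A member was counted if any of its listed promoters held the motif, while the percentages count single promoters. None of the 4 motifs contains another, and a match describes letters only.

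Library totals lay between 39492734 and 59979046 reads counted in genes, and single members had between 279 and 19595 reads in a library. The injected mRNAs were present where the labels place them. Snrpb stood at 876 to 1704 cRPKM in the 2-cell libraries given it and at 17.4 to 26.2 cRPKM in the others, and at 11913 to 43850 cRPKM in the 1-cell libraries given it and at 6.09 to 7.96 cRPKM in the others. Snrpd2 stood at 4726 to 5240 cRPKM in the 2-cell libraries given it and at 5.20 to 10.6 cRPKM in the others, and at 9142 to 17926 cRPKM in the 1-cell libraries given it and at 0.85 to 1.89 cRPKM in the others. Oocyte and zygote markers were detected (10 reads or more) in every library, 10 of 10. Of the 8 markers of the 2-cell embryo that were found in the tables, 8 were detected at the 2-cell stage and 3 at the 1-cell stage. The unit cRPKM is the authors' reads per kilobase of gene, scaled to the read total of the library, so levels can be compared between genes.

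Of the 10 genes, 9 were lower in 2-cell than in 1-cell embryos, and Prpf4 alone was higher. The change between stages was tested with edgeR's quasi-likelihood test with the injection as a block, the 4 injections taking the place of replicates. Among all 15400 genes tested, 34.2% were lower and 37.2% were higher at an adjusted p under 0.05, so a called fall in itself is common, and the sizes of the falls set the members apart from one another. The median log2 change was -1.61 over the members and 0.06 over all genes tested. A fall of at least 2-fold passed in 8 members and in 21.2% of all genes tested, and a fall of at least 4-fold in 4 members (Prpf6, Snrnp200, Snrnp40 and Eftud2, all of U5) and in 6.81% of all genes tested. The p-values measure the spread between differently injected libraries, not between replicate pools.

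**Figure D1:**
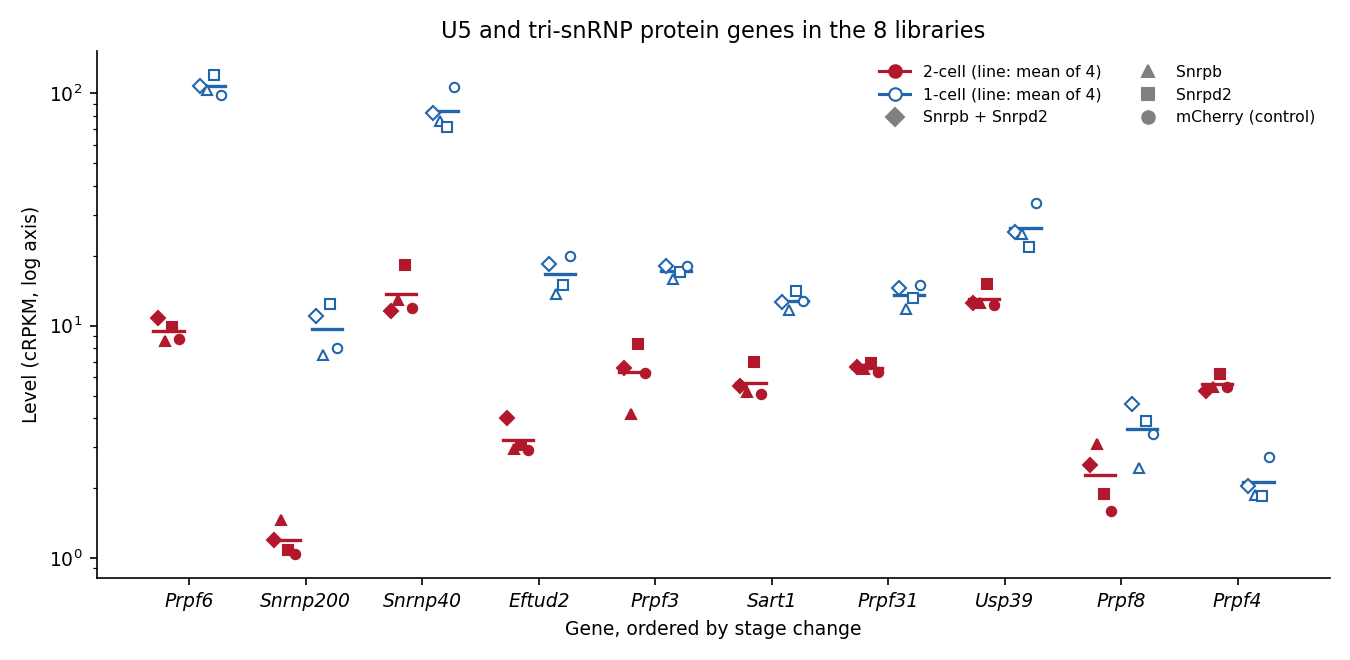
Level of each gene in each of the 8 libraries, in cRPKM on a log axis. Filled red symbols are 2-cell libraries, open blue symbols are 1-cell libraries, the symbol shape gives the injection and the short line is the mean of the 4 libraries of a stage. The stages are apart for every gene except Prpf8, whose 2-cell libraries reach 3.08 cRPKM while its 1-cell libraries begin at 2.44 cRPKM.

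Prpf6 encodes the U5 protein that bridges U5 to U4/U6 within the tri-snRNP. It had 10.8, 8.56, 9.84 and 8.80 cRPKM in 2-cell embryos given both mRNAs, Snrpb, Snrpd2 and mCherry, against 108, 103, 120 and 98.4 cRPKM in the 1-cell embryos in the same order. Every 2-cell library was far below every 1-cell library. The fall was 13.8-fold (log2 change -3.78 ± 0.13 SE, adjusted p = 1.8e-08, edgeR), and 0.442% of all genes tested fell by as much or more.

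Snrnp200 encodes the U5 helicase, known as Brr2 in yeast, that unwinds U4 from U6 during activation. It had 1.19, 1.45, 1.08 and 1.04 cRPKM in 2-cell embryos given both mRNAs, Snrpb, Snrpd2 and mCherry, against 10.95, 7.48, 12.4 and 8.0 cRPKM in 1-cell embryos. At the 2-cell stage it was the lowest of the 10 genes in every library. The fall was 9.75-fold (log2 change -3.29 ± 0.19 SE, adjusted p = 2.2e-07, edgeR), a size reached by 1.01% of all genes.

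Snrnp40 encodes a WD40-repeat protein of U5. Its levels were 11.5, 12.9, 18.3 and 11.9 cRPKM in 2-cell embryos given both mRNAs, Snrpb, Snrpd2 and mCherry, against 82.5, 76.4, 72.0 and 107 cRPKM in 1-cell embryos. The 2-cell Snrpd2 library was the highest of its stage while the 1-cell Snrpd2 library was the lowest of its own, and the stages did not overlap. Snrnp40 fell 7.53-fold (log2 change -2.91 ± 0.18 SE, adjusted p = 3.0e-07, edgeR).

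Eftud2 encodes the GTPase of U5, which sits on Prpf8 and is known as Snu114 in yeast. It had 4.01, 2.94, 3.06 and 2.90 cRPKM in 2-cell embryos given both mRNAs, Snrpb, Snrpd2 and mCherry, against 18.4, 13.6, 14.9 and 19.9 cRPKM in 1-cell embryos. The 2-cell library given both mRNAs stood above the other 3, which lay close together, and the stages did not overlap. Eftud2 fell 6.26-fold (log2 change -2.65 ± 0.14 SE, adjusted p = 1.2e-07, edgeR).

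Prpf8, the scaffold of the catalytic centre and the largest protein of U5, changed least among the genes that fell. It had 2.50, 3.08, 1.88 and 1.59 cRPKM in 2-cell embryos given both mRNAs, Snrpb, Snrpd2 and mCherry, against 4.60, 2.44, 3.87 and 3.40 cRPKM in 1-cell embryos. Its stages overlapped, because the 2-cell embryos given Snrpb or both mRNAs were at or above the 1-cell Snrpb library. The fall was 1.93-fold (log2 change -0.95 ± 0.22 SE, adjusted p = 0.0029, edgeR), and 23.1% of all genes fell by as much or more. Within the Snrpb injection Prpf8 did not differ between stages beyond counting error, with a 2-cell to 1-cell ratio of 0.981 (95% interval 0.897 to 1.07). In the other 3 injections that ratio was 0.458 (both mRNAs), 0.374 (Snrpd2) and 0.390 (mCherry). Without the 2-cell Snrpb library the log2 change of Prpf8 was -1.23, and without the 1-cell Snrpb library it was -1.24. With any other single library left out it ran from -0.91 to -0.80.

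Prpf3 and Prpf4 encode the pair of U4/U6 proteins that bind each other, and their mRNAs went opposite ways. Prpf3 had 6.55, 4.18, 8.37 and 6.23 cRPKM in 2-cell embryos given both mRNAs, Snrpb, Snrpd2 and mCherry, against 18.0, 15.9, 16.98 and 18.0 cRPKM in 1-cell embryos. Prpf4 had 5.24, 5.44, 6.19 and 5.46 cRPKM in 2-cell embryos, against 2.03, 1.87, 1.84 and 2.73 cRPKM in 1-cell embryos, in the same order of injections. All 4 libraries of the 2-cell stage were below all of the 1-cell stage for Prpf3 and above all of them for Prpf4. Prpf3 fell 3.39-fold (log2 change -1.76 ± 0.16 SE, adjusted p = 4.6e-06) and Prpf4 rose 2.20-fold (log2 change 1.14 ± 0.15 SE, adjusted p = 6.1e-05, edgeR).

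Prpf31, the third U4/U6 protein, which binds U4 and is needed to join U4/U6 to U5, had 6.62, 6.48, 6.87 and 6.34 cRPKM in 2-cell embryos given both mRNAs, Snrpb, Snrpd2 and mCherry, against 14.5, 11.8, 13.2 and 14.9 cRPKM in 1-cell embryos. Its 2-cell libraries were the most even of any member, with a coefficient of variation of 3.44%, against 10.5% at the 1-cell stage. It fell 2.50-fold (log2 change -1.32 ± 0.12 SE, adjusted p = 4.8e-06, edgeR).

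Sart1 and Usp39 encode proteins that belong to the joined tri-snRNP rather than to U5 or U4/U6 alone; their yeast relatives are Snu66 and Sad1. Sart1 averaged 5.68 ± 0.860 cRPKM in 2-cell embryos and 12.8 ± 1.00 cRPKM in 1-cell embryos (SD, n = 4 libraries each). Usp39 averaged 13.1 ± 1.35 cRPKM in 2-cell embryos and 26.4 ± 5.09 cRPKM in 1-cell embryos (SD, n = 4 libraries each). Neither gene overlapped between stages. Sart1 fell 2.75-fold (log2 change -1.46 ± 0.11 SE, adjusted p = 1.6e-06) and Usp39 fell 2.42-fold (log2 change -1.28 ± 0.15 SE, adjusted p = 2.6e-05, edgeR).

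Counted by cRPKM ranges, 8 members had all 4 of their 2-cell libraries below all 4 1-cell libraries, which held for 28.4% of 14038 genes with 50 reads or more in a library. Prpf4 had all 4 above, which held for 43% of those genes. The direction of every member was kept in each of the 16 alternative fits, Prpf8 having the smallest fall among them (log2 change -0.49 with limma on log2(cRPKM + 1)). The choice of scaling moves the zero: the median of all genes was 0.06 on the log2 scale with TMM scaling and 0.34 with library totals, and the share of calls that were higher was 52.1% with TMM and 62.2% with library totals. With library totals 9 members still fell and Prpf4 still rose. The cRPKM levels are scaled to library totals and the edgeR changes to TMM, so the 2 give different sizes. Usp39 had a log2 change of -1.28 with TMM and -0.999 with library totals, where it was just short of 2-fold. The summed level of the oocyte and zygote markers was 4338 to 5343 CPM in 2-cell embryos and 9674 to 12326 CPM in 1-cell embryos, and that of the 2-cell markers was 167 to 174 CPM in 2-cell embryos and 5.37 to 6.83 CPM in 1-cell embryos. Their part in the members' changes was not tested. Each library pooled 40 embryos of 1 cell or of 2 cells, so the number of embryo cells is given by the stage. Levels are relative to the reads of a library, so less of an mRNA and more of other mRNA cannot be told apart. Neither can fewer transcripts and fewer that carry a poly(A) tail. For any other cells carried along, cell number and RNA per cell cannot be told apart. Prpf31, Eftud2 and Sart1 overlap noncoding genes on the opposite strand in the GENCODE annotation, and since the use of strand in counting is not given, reads of the pairs cannot be told apart.

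**Figure D2:**
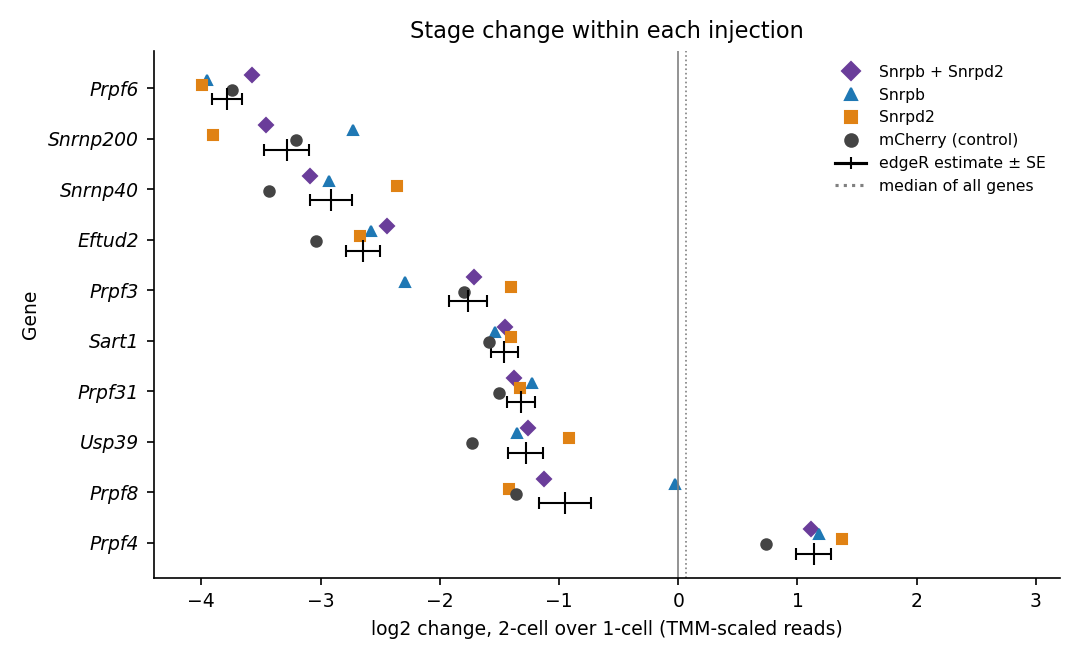
Change between stages for each gene, as log2 of the 2-cell over the 1-cell value. Coloured symbols are the ratios of TMM-scaled reads within each injection, black marks are the edgeR estimate with its standard error, the solid vertical line is no change and the dotted line is the median of all genes (0.06). Prpf6 is farthest left in the edgeR estimates (-3.78), the Prpf8 symbol of the Snrpb injection lies at no change, and Prpf4 alone lies to the right.

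Within the 4 injections the sizes were close for Prpf6, Sart1 and Prpf31 and wider for the other 7 members. The fall of Prpf6 was 11.9-fold to 15.9-fold within the 4 injections, that of Sart1 2.65-fold to 3.01-fold and that of Prpf31 2.33-fold to 2.83-fold. The fall of Prpf8 ranged most, from 1.02-fold to 2.67-fold. That of Snrnp200 was 6.63-fold to 14.9-fold and that of Snrnp40 5.12-fold to 10.8-fold. Between these lay Prpf3 (2.64-fold to 4.90-fold), Usp39 (1.89-fold to 3.31-fold) and Eftud2 (5.44-fold to 8.23-fold). The rise of Prpf4 was smallest with mCherry (1.66-fold, 95% interval 1.52 to 1.82) and was 2.17-fold, 2.27-fold and 2.59-fold with both mRNAs, Snrpb and Snrpd2. These intervals cover counting error only, and each ratio compares 1 library with 1 library.

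The order of the members differed between stages. In 1-cell embryos Prpf6 (108 ± 9.47 cRPKM) and Snrnp40 (84.4 ± 15.4 cRPKM, SD, n = 4 libraries) led; their ranges overlapped, and both were above Usp39, the next gene, in all 4 libraries. Usp39 was above Prpf3 without overlap. Below them Prpf3, Eftud2, Prpf31, Sart1 and Snrnp200 ran from 17.2 down to 9.70 cRPKM, with each neighbour's range overlapping the next. Prpf8 (3.58 ± 0.905 cRPKM) and Prpf4 (2.12 ± 0.417 cRPKM) were lowest, and their ranges overlapped, although Prpf8 was the higher in all 4 libraries.

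In 2-cell embryos Snrnp40 (13.7 ± 3.15 cRPKM) and Usp39 (13.1 ± 1.35 cRPKM, SD, n = 4 libraries) led with overlapping ranges. Prpf6 came next at 9.50 ± 1.02 cRPKM, apart from both neighbours. Prpf31, Prpf3, Sart1 and Prpf4 lay between 6.58 and 5.58 cRPKM with overlapping ranges. Eftud2 (3.23 ± 0.526 cRPKM) and Prpf8 (2.26 ± 0.664 cRPKM) overlapped each other, and Snrnp200 (1.19 ± 0.185 cRPKM) was below both without overlap.

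Both the sum of the members and the spread between them were smaller in 2-cell embryos. The summed level of the 10 genes was 61.6 to 77.6 cRPKM in the 2-cell libraries and 269 to 318 cRPKM in the 1-cell libraries. Prpf6 and Snrnp40 together made up 33.6% to 36.3% of that sum in 2-cell embryos and 64.2% to 66.7% in 1-cell embryos. The highest member exceeded the lowest by 8.92-fold to 16.9-fold in 2-cell libraries and by 39.0-fold to 65.4-fold in 1-cell libraries.

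**Figure D3:**
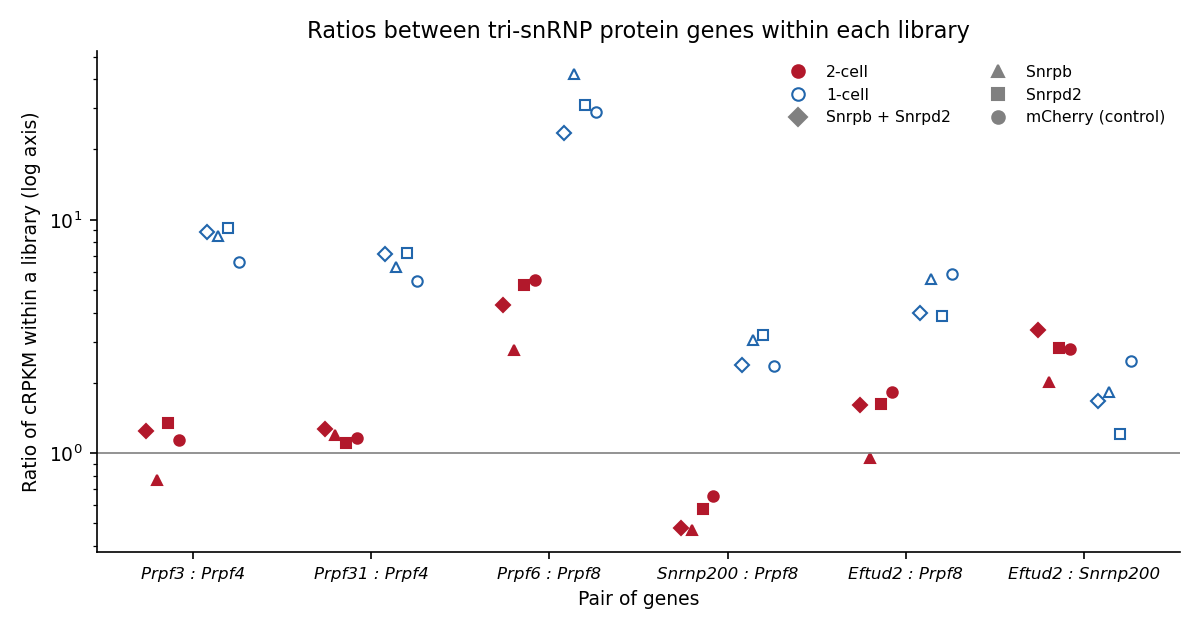
Ratio of the cRPKM of 2 genes within each library, on a log axis. Filled red symbols are 2-cell and open blue symbols 1-cell libraries, and the symbol shape gives the injection. The 2-cell ratio of Prpf3 to Prpf4 lies between 0.768 and 1.35 and the 1-cell ratio between 6.60 and 9.23, whereas the 2 stages overlap for Eftud2 over Snrnp200.

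Ratios within a library do not depend on the scaling between libraries. The ratio of Prpf3 to Prpf4, whose proteins bind each other, was 1.25, 0.768, 1.35 and 1.14 in 2-cell embryos given both mRNAs, Snrpb, Snrpd2 and mCherry, against 8.89, 8.52, 9.23 and 6.60 in 1-cell embryos. By cRPKM, the mRNAs of this pair were thus near even at the 2-cell stage and uneven at the 1-cell stage in each injection. The evenness rests on the gene lengths used for cRPKM and on even coverage along the transcripts, which were not checked. Prpf31 over Prpf4 was 1.11 to 1.26 in 2-cell embryos and 5.47 to 7.18 in 1-cell embryos.

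Within U5, ratios were taken to Prpf8. Prpf6 over Prpf8 was 2.78 to 5.53 in 2-cell embryos and 23.5 to 42.3 in 1-cell embryos. Snrnp200 over Prpf8 was 0.471 to 0.654 in 2-cell embryos and 2.35 to 3.19 in 1-cell embryos, so Snrnp200 was below Prpf8 in every 2-cell library and above it in every 1-cell library. Eftud2 over Prpf8 was 0.955 to 1.82 in 2-cell embryos and 3.86 to 5.85 in 1-cell embryos, without overlap. Eftud2 over Snrnp200, in contrast, was 2.03 to 3.37 in 2-cell embryos and 1.21 to 2.48 in 1-cell embryos, and these ranges overlapped. The ratio of Snrnp40 to Usp39 was 0.922 to 1.21 in 2-cell embryos and 3.09 to 3.29 in 1-cell embryos. The pairs other than those with Prpf8 were picked after their values were seen and are a description.

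No member passed the test for the injected Sm mRNAs. With the 3 Sm-injected libraries set against the mCherry library of the same stage in edgeR, 0 of the 10 members were called at the 2-cell stage and 0 at the 1-cell stage, and the difference between the 2 effects was called for 0. The background was the same, since 0% of 15400 genes were called in each of the 3 comparisons. The injected genes were not called either (at the 1-cell stage Snrpb had a log2 change of 11.27 ± 4.29 SE and Snrpd2 12.25 ± 5.13 SE, adjusted p = 0.238 and 0.270), each having been injected in 2 of the 3 Sm-injected libraries, so their lack of a call says nothing about the size of their change. The 3 Sm-injected libraries of a stage were given different mRNAs and were not replicates of 1 condition. The spread in this fit thus includes differences between the injections, and an effect of 1 mRNA alone widens it. For the members, the lack of a call does not show that an effect was absent. Their SEs on the log2 scale ran from 0.16 (Prpf6) to 0.33 (Prpf8) at the 2-cell stage. At the 1-cell stage they ran from 0.16 (Prpf6) to 0.32 (Prpf8). At an unadjusted p under 0.05 there were 569 genes at the 2-cell stage, 2540 at the 1-cell stage and 1572 for the difference. DESeq2 called 0 members in each of the 3 comparisons. Across all genes it called 0 at the 2-cell stage, 532 at the 1-cell stage and 32 for the difference.

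Among the members, Prpf4 and Usp39 were below an unadjusted p of 0.05 at the 1-cell stage in edgeR, as were 2540 of the 15400 genes tested. Neither was below it when the 1-cell Snrpd2 library was left out, and with limma at a pseudocount of 1 only Usp39 was. Prpf4 had 2.03, 1.87 and 1.84 cRPKM in 1-cell embryos given both mRNAs, Snrpb and Snrpd2, against 2.73 cRPKM with mCherry (log2 change -0.46 ± 0.18 SE, adjusted p = 0.243, edgeR). Usp39 had 25.2, 24.7 and 21.9 cRPKM in the same 3 libraries, against 33.7 cRPKM with mCherry (log2 change -0.44 ± 0.17 SE, adjusted p = 0.236, edgeR). For both genes the mCherry library was the highest of the stage. At the 2-cell stage no member was below an unadjusted p of 0.05, and the largest estimate was that of Prpf8 (log2 change 0.62 ± 0.33 SE, adjusted p = 1.00, edgeR). The difference between the stages' effects was below an unadjusted p of 0.05 for Usp39 in this fit (0.54 ± 0.24 SE on the log2 scale, adjusted p = 0.486, edgeR). Usp39 was no longer below it without the library given both mRNAs or the Snrpd2 library, at either stage. Snrnp40 (0.65 ± 0.31 SE, unadjusted p = 0.0567 in edgeR's fit across all genes) was below it with DESeq2, with each other scaling, without the filter and with limma. Snrnp40 was not below it when any 1-cell Sm-injected library was left out. With libraries left out, its estimate ran from 0.44 to 0.79 on the log2 scale.

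**Figure D4:**
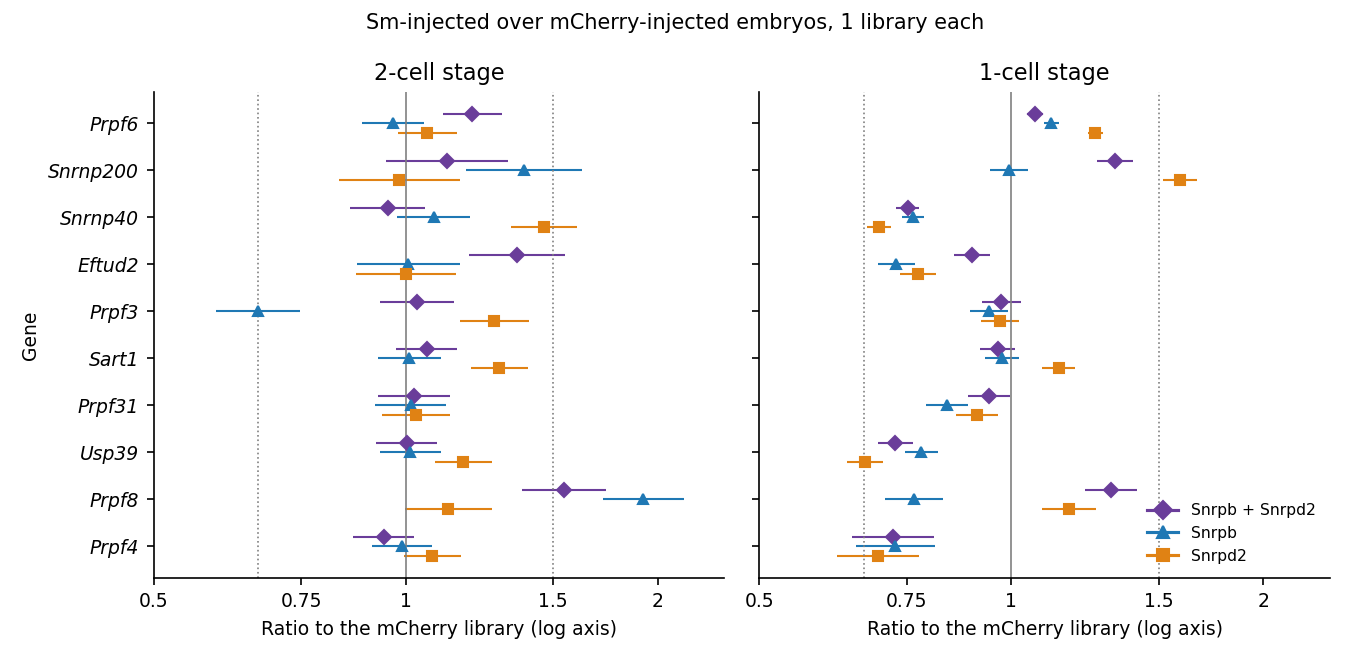
Ratio of each Sm-injected library to the mCherry library of its stage, from TMM-scaled reads on a log axis, with the 2-cell stage on the left and the 1-cell stage on the right. Bars are 95% intervals for counting error only, and dotted lines mark 1.5-fold either way. Prpf8 with Snrpb at the 2-cell stage (1.92) lies farthest to the right, and Prpf3 with Snrpb at the 2-cell stage (0.666) lies at the lower dotted line.

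Taken as single libraries, with no replicate check, few members passed a 1.5-fold change with an interval that excluded 1. Prpf8 was 1.92-fold higher (95% interval 1.72 to 2.15) in 2-cell embryos given Snrpb than in those given mCherry, where 8.2% of genes passed upward. It was 1.54-fold higher (1.38 to 1.73) in 2-cell embryos given both mRNAs, where 7.1% passed upward. With Snrpd2 alone Prpf8 was 1.12-fold higher at that stage, and its interval included 1 (0.997 to 1.27). At the 1-cell stage the ratio of Prpf8 with Snrpb went the other way, at 0.764 (0.706 to 0.828). It was 1.32 (1.23 to 1.41) with both mRNAs and 1.17 (1.09 to 1.26) with Snrpd2 at that stage.

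Prpf3 was 1.5-fold lower (ratio 0.666, 0.594 to 0.747) in 2-cell embryos given Snrpb, where 5.97% of genes passed downward. It sat at the 1.5-fold limit and did not pass with library totals or DESeq2 size factors. With Snrpd2 its ratio was 1.28 (1.16 to 1.40), and with both mRNAs it was 1.03 (0.931 to 1.14). Snrnp200 was 1.59-fold higher (1.52 to 1.67) in 1-cell embryos given Snrpd2, where 12.3% passed upward, and its ratios were 1.33 with both mRNAs and 0.995 with Snrpb.

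No member passed in 2-cell embryos given Snrpd2, where 13.3% of genes passed in either direction, or in 1-cell embryos given both mRNAs (13.9%) or Snrpb (16.2%). Snrnp40 with Snrpd2 came close at both stages, in opposite directions. Its ratio was 1.46 (1.34 to 1.6) at the 2-cell stage and 0.695 (0.673 to 0.718) at the 1-cell stage. Usp39 in 1-cell embryos given Snrpd2 lay just short of the limit, with a ratio of 0.668 (0.636 to 0.702). The 3 ratios of a stage share 1 mCherry library, so they are not independent of each other. None of the ratios above passed at 2-fold.

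Markers of other cells also differed between injections. The summed level of 12 cumulus and granulosa markers was 41.0 to 53.7 CPM in Sm-injected and 36.5 CPM in mCherry 2-cell embryos, and 67.6 to 88.7 CPM in Sm-injected and 46.1 CPM in mCherry 1-cell embryos. Between 8 and 10 of these 12 markers had 10 reads or more in a library, and Pgr was at 0 in all 4 1-cell libraries. The markers did not move alike. In 2-cell embryos given both mRNAs, Snrpb and Snrpd2, Foxl2 had 527, 475 and 537 reads, against 351 with mCherry. Has2 had 112, 97 and 108 reads against 127, and Fshr had 29, 33 and 1 against 53. Foxl2 had only 3 to 6 reads in 1-cell libraries, where Cyp19a1 had the most reads of the list (2008 to 2469). The oocyte and zygote markers summed to 4338 to 4681 CPM in Sm-injected and 5343 CPM in mCherry 2-cell embryos, and to 9674 to 10498 CPM in Sm-injected and 12326 CPM in mCherry 1-cell embryos. The 5 blood markers summed to 1.90 to 7.64 CPM in Sm-injected and 2.42 CPM in mCherry 2-cell embryos, and to 0.0607 to 0.10 CPM in Sm-injected and 0 CPM in mCherry 1-cell embryos. Lyz2 had 140, 76, 326 and 102 reads in 2-cell embryos given both mRNAs, Snrpb, Snrpd2 and mCherry, and 0 to 2 reads in 1-cell libraries, while Hbb-bs and Hbb-bt were at 0 in all 8 libraries. The part of these markers in the members' values was not tested.

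The other proteins of the tri-snRNP and of the B complex, the particle formed when the tri-snRNP joins the pre-mRNA, had more falls than rises between stages. Of 16 genes, 2 were higher and 11 lower in 2-cell embryos, where 37.2% of all genes tested were higher and 34.2% lower, and the median log2 change was -1.10 against 0.06 over all genes. Sart3, the factor that re-forms U4/U6, had 13.2 ± 1.80 cRPKM in 2-cell embryos and 80.7 ± 8.48 cRPKM in 1-cell embryos (SD, n = 4 libraries each; log2 change -2.90 ± 0.14 SE). Smu1, a B complex protein, had 34.5 ± 3.54 cRPKM in 2-cell embryos and 192 ± 24.0 cRPKM in 1-cell embryos (log2 change -2.75 ± 0.13 SE). One of the 2 that rose was Ppih, the cyclophilin that binds Prpf3 and Prpf4, at 52.4 ± 4.93 cRPKM in 2-cell and 10.6 ± 3.33 cRPKM in 1-cell embryos (log2 change 2.07 ± 0.24 SE). The other was Ubl5, whose yeast relative binds that of Sart1, at 144 ± 22.3 cRPKM in 2-cell and 42.6 ± 7.88 cRPKM in 1-cell embryos (1.48 ± 0.15 SE). All 4 had an adjusted p of 2.7e-05 or less in edgeR. With library totals in place of TMM, and with limma, this list had 4 higher calls.

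Of 9 genes for U5 assembly and its chaperones that were found, 4 were higher and 5 lower in 2-cell embryos (median log2 change -0.28), beside 37.2% higher and 34.2% lower over all genes tested. The lower calls numbered 4 when any 1 library was left out, and also with DESeq2, library totals and limma. They stayed at 5 without the filter or without the injection block. Uri1 had the weakest call (log2 change -0.28 ± 0.11 SE, adjusted p = 0.043, edgeR). Its means were 31.4 cRPKM in 2-cell and 31.5 cRPKM in 1-cell embryos, with overlapping ranges. Ruvbl1, an ATPase of the R2TP chaperone, had 29.4 ± 2.86 cRPKM in 2-cell and 4.37 ± 0.819 cRPKM in 1-cell embryos (log2 change 2.49 ± 0.15 SE). Aar2, which in yeast holds the Prpf8 relative during assembly, had 2.38 ± 0.478 cRPKM in 2-cell and 0.477 ± 0.0964 cRPKM in 1-cell embryos (2.03 ± 0.22 SE). In the other direction, Ecd, a protein that binds Prpf8, had 17.6 ± 1.77 cRPKM in 2-cell and 102 ± 7.68 cRPKM in 1-cell embryos (log2 change -2.83 ± 0.12 SE). Pih1d1, an adaptor of R2TP, had 3.02 ± 0.672 cRPKM in 2-cell and 9.66 ± 1.29 cRPKM in 1-cell embryos (-1.97 ± 0.22 SE).

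The NTC (the complex around Prpf19) and related proteins, which join as the spliceosome is activated, held both rises and falls. Of 16 genes, 6 were higher and 7 lower (median log2 change 0.15), near the shares over all genes tested (37.2% higher and 34.2% lower). Bcas2, a core NTC protein, had 113 ± 9.96 cRPKM in 2-cell and 8.13 ± 3.2 cRPKM in 1-cell embryos (log2 change 3.59 ± 0.22 SE). Cwc22, which brings in the exon junction complex, had 36.7 ± 2.72 cRPKM in 2-cell and 5.90 ± 0.903 cRPKM in 1-cell embryos (2.37 ± 0.14 SE). Crnkl1, another NTC protein, had 25.6 ± 2.44 cRPKM in 2-cell and 155 ± 6.76 cRPKM in 1-cell embryos (log2 change -2.87 ± 0.11 SE). Rbm22, which contacts the catalytic RNA, had 19.5 ± 3.76 cRPKM in 2-cell and 72.6 ± 3.96 cRPKM in 1-cell embryos (-2.19 ± 0.14 SE).

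Of 10 splicing helicases and step factors, 2 were higher and 4 lower (median log2 change -0.02), beside 37.2% higher and 34.2% lower over all genes tested. Gpkow, the partner of the helicase Dhx16, had 6.50 ± 0.983 cRPKM in 2-cell and 0.537 ± 0.170 cRPKM in 1-cell embryos (log2 change 3.35 ± 0.24 SE). Ddx46, a helicase of early assembly, had 29.6 ± 2.4 cRPKM in 2-cell and 20.1 ± 2.06 cRPKM in 1-cell embryos (0.29 ± 0.11 SE, adjusted p = 0.037, edgeR). The 2 largest falls were those of the second-step factors Slu7 (19.3 ± 1.09 cRPKM in 2-cell and 40.1 ± 2.55 cRPKM in 1-cell embryos, log2 change -1.34 ± 0.11 SE) and Cdc40 (22.9 ± 1.36 cRPKM in 2-cell and 38.1 ± 2.69 cRPKM in 1-cell embryos, -1.02 ± 0.12 SE). The higher calls of this list numbered 1 when the Snrpb library or the library given both mRNAs was left out at either stage. In the 4 lists no gene was called for the Sm injections at either stage.

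**Figure D5:**
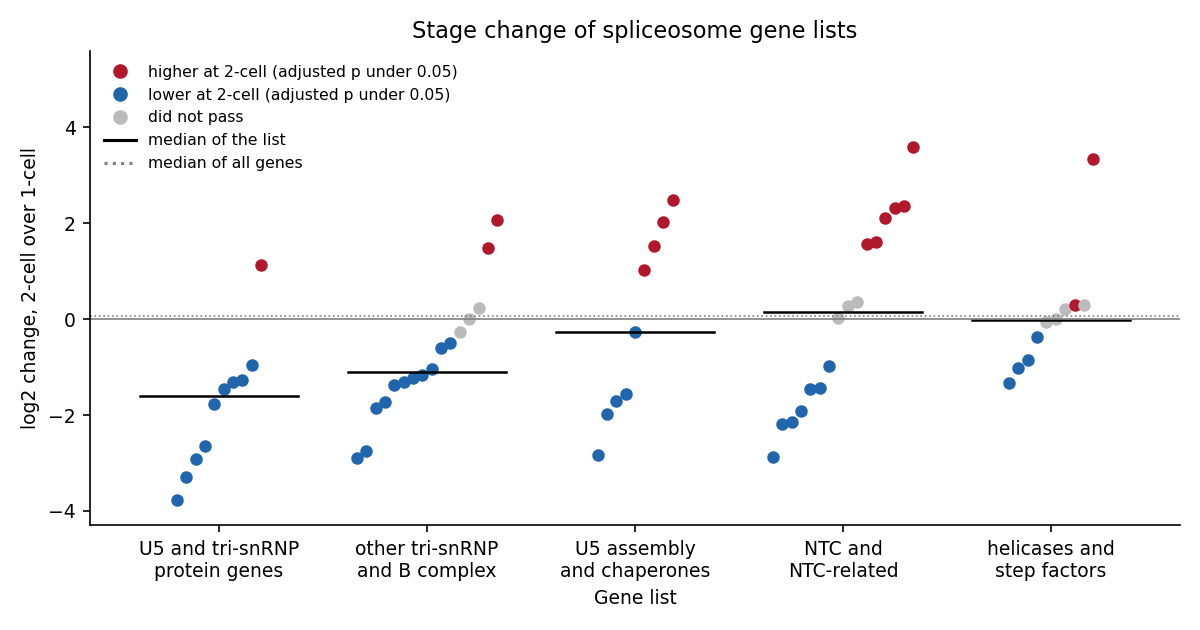
Change between stages of each gene in the U5 and tri-snRNP set and in the 4 lists of related genes, as the log2 edgeR estimate of 2-cell over 1-cell. Red points passed as higher, blue points as lower and grey points did not pass; the black bar is the median of a list (-1.61 for the 10 genes at the left, -1.10 for the next list) and the dotted line is the median of all genes (0.06).

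For each member, the gene outside the set whose profile over the 8 libraries was most alike was taken from 12538 genes, by the root-mean-square difference of log2 CPM centred on each gene's mean. The closest match of all was Ptpre for Prpf31, at 0.0441 on the log2 scale. The matches were Mcm10 for Prpf6 (0.0844), Bub3 for Snrnp40 (0.0769), Ddx27 for Prpf3 (0.0918), Lsm14b for Sart1 (0.0774), Snx6 for Usp39 (0.0575) and Nop10 for Prpf4 (0.0772). Eftud2 was matched by 4933427D06Rik (0.0928), Prpf8 by Dzank1 (0.103) and Snrnp200 by Usp19 (0.168), the loosest of the 10 matches. Between members, Prpf31 and Usp39 were closest (0.145), and Prpf4 and Prpf6 were farthest apart (2.47). These differences describe 8 libraries that split into 2 stages, and the points share library depth and scaling.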

How the data were processed

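Polyadenylated RNA of 8 mouse embryo pools was sequenced (SMARTer Stranded kit, HiSeq2500), per the labels' protocols. The authors deposited, per gene, a read count (whole reads per Ensembl gene, not normalized) and cRPKM, an RPKM value scaled to gene length and library total. The submitters' processing notes name the build mm9. The aligner, annotation, strand setting and handling of multi-mapped reads were not given in the sources used here. Gene names came from GENCODE vM21 by Ensembl identifier, and 20451 of 21553 genes with a value had one.

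The deposited counts were tested with edgeR 4.0.16 in R 4.3.3 (quasi-likelihood test, TMM, filterByExpr by stage, Benjamini-Hochberg adjustment over 15400 genes, calls at 0.05). The stage model, with injection and stage as terms, left 3 residual degrees of freedom. The Sm model had 4 groups and 4 residual degrees of freedom, and assumed that the lone mCherry library varies like the others. Single-library ratios used TMM-scaled reads, genes with 50 reads or more in either library, and exact conditional binomial intervals at 95% (scipy 1.17.1). Intervals cover counting error only, because PCR copies without molecular identifiers do not count separate molecules. Alternatives used DESeq2 1.42.0, limma 3.58.1 on log2(cRPKM + 0.1) or log2(cRPKM + 1), other scalings, no filter, and single libraries left out. Scripts were tested on simulated data.

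The 10 genes and the gene lists were chosen with earlier results of these data known. Named genes are all members, and from each list the 2 called genes with the largest rise and the 2 with the largest fall. Uri1 of the assembly list is also named, for its weak call. Znhit2 of the assembly list, and Dub1 and Tcstv3 of the 2-cell markers, were not matched and not analysed here. Promoter sequences are RefSeq's (GRCm38.p6). Exon overlaps between genes were taken from GENCODE vM21, not from the build mm9 of the processing notes. No other coordinates were used because the builds differ.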

Additional observations from a re-analysis of the deposited data

Results flagged for a closer look

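In 2 of the 20 sets of 4 libraries (10 genes at 2 stages), 1 library stood apart from the other 3 by Dixon's test of the gap over the range. Chance flags about 1 in 20 groups. Eftud2 was at 4.01 cRPKM in 2-cell embryos given both mRNAs, and at 2.94, 3.06 and 2.90 cRPKM in those given Snrpb, Snrpd2 and mCherry. Usp39 was at 15.1 cRPKM in 2-cell embryos given Snrpd2, and at 12.5, 12.5 and 12.2 cRPKM in those given both mRNAs, Snrpb and mCherry. The 4 libraries of a set had different injections.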

How the results depend on the processing

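The stage call and direction of each of the 10 genes held under all 16 alternatives, with 9 lower and 1 higher in each, also without the injection block. The labels give no replicate numbers, and the stage fit paired the 2 libraries of each injection by its injection block. For the Sm injections no member was called under any alternative. Across all genes, DESeq2 called 532 at the 1-cell stage and 32 for the difference between stages, limma called 1 at the 2-cell stage with either pseudocount, and leaving out libraries gave 0 to 2 at the 1-cell stage. Higher calls numbered 4 in the list of other tri-snRNP genes with library totals and with both limma fits. In the list of helicases and step factors they numbered 4 in the same fits, 1 without a filter and 1 to 3 when libraries were left out. At 2-fold, the single-library ratios gave 0 members in each case where 1 had passed. With library totals or DESeq2 size factors, 1 member passed as lower in the 1-cell Snrpd2 library and 0 in the 2-cell Snrpb library, and with library totals 1 passed as higher in the 2-cell Snrpd2 library. Some Sm estimates near 0 that did not pass changed sign. At the 2-cell stage Prpf3 was -0.011 (log2) without a filter, -0.024 with limma at a pseudocount of 0.1, -0.015 at 1, -0.014 with the injected genes left out (added after seeing the data) and -0.24 to 0.20 when libraries were left out, and Prpf4 was -0.052 to 0.066 with libraries left out. At the 1-cell stage Prpf8 ran from -0.028 to 0.32 and Sart1 from -0.020 to 0.099 with libraries left out. The difference between stages ran from -0.20 to 0.26 for Prpf3 and from -0.012 to 0.20 for Sart1. The cause was not tested. Counting error was smallest for Prpf6 at the 1-cell stage, with 16063 to 19595 reads a library. It was largest for Snrnp200 at the 2-cell stage, with 279 to 371 reads a library. With 1 library a condition, differences between pools of the same injection are unknown.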
